A study of Homo sapiens with 23 samples.

Results

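CHEK1 encodes CHK1, the kinase that prexasertib inhibits, and it lies on the long arm of chromosome 11 in band 11q24. The 41 genes described here are CHEK1 and its neighbours, chosen by symbol from a stretch of about 5.86 Mb. The list was drawn up with the difference between resistant and parental Kuramochi cells already known, so the Kuramochi values of these genes are given as a description, without a test. A row was found for 40 of the 41 genes among the 21658 genes of the table, and no row matched HEPACAM. In order of position the stretch runs from HSPA8 (GRCh37 chr11:122928197, lower end) to KCNJ5 (upper end 128791058). Gene limits come from the GENCODE annotation lifted to GRCh37.

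The study sequenced mRNA from 4 ovarian cancer cell lines, Kuramochi, OVSAHO, OV-90 and EFO-21, each as the parental line and as a derivative selected for growth in rising concentrations of prexasertib over a long period. Each of the 8 groups has 3 libraries except parental OV-90, which has 2, and the submitters call the libraries biological replicates. Kuramochi and OVSAHO are widely used models of high-grade serous ovarian carcinoma, and the labels name no genetic change or treatment other than the selection in any group. Libraries are named here by the numbers 2 to 24 that their columns carry. Whether a resistant line is 1 clone or a mixed population, and whether drug was present at harvest, is not given in the sources used here. The values are log2 expression levels after quantile normalization, so a difference of 1 is a 2-fold change. No read counts were used, so the depth behind each value is unknown. Correlations between libraries of a group across genes ran from 0.952, for the parental OV-90 pair, to 0.988. In bulk RNA, fewer cells that express a gene and less RNA per cell cannot be told apart.

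CHK1 acts downstream of ATR, the kinase that senses single-stranded DNA at stalled replication forks. Active CHK1 restrains CDC25 phosphatases and so holds back the cyclin-dependent kinases, which slows origin firing and entry into mitosis while forks are repaired. Tumour cells with heavy replication stress lean on this checkpoint, and serous ovarian carcinomas are often of that kind. Neighbouring genes on a chromosome need not share a function, and the genes around CHEK1 serve protein glycosylation, RNA modification, cilia, cell adhesion and ion transport.

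Markers of cell type were read first. The epithelial keratins KRT8 and KRT18 were high in all 8 groups, with mean log2 levels of 8.77 and above. The other epithelial markers were less even. KRT19, EPCAM and CDH1 had 8.58, 6.47 and 4.62 in parental Kuramochi and 4.62, 2.69 and 1.61 in resistant Kuramochi. In OVSAHO they went from 5.63, 8.83 and 8.14 to 3.32, 5.82 and 6.47. In both OV-90 groups they were at 8.56 and above, and in EFO-21 CDH1 had 4.65 in parental and 6.03 in resistant cells. PAX8 and WT1, which mark serous ovarian cells, had mean levels of 2.10 and 1.87 in parental OV-90, and SOX17 had 4.38 there. In the other lines PAX8 had mean levels of 8.44 and above. WT1 was high in parental Kuramochi (7.96) and in parental and resistant OVSAHO (8.25 and 7.68). It had 5.72 in resistant Kuramochi and was low in EFO-21 (1.03 in parental and 0.04 in resistant cells). In resistant Kuramochi, 4 of 5 epithelial markers and 3 of 5 Mullerian or serous markers were lower than in parental cells by at least 1 without overlap, and the summed epithelial level fell from between 12.77 and 13.08 to between 11.82 and 11.90. Of 4 leukocyte markers 2 were lower. CD3E, 1 of them, had means of 1.04 in parental and 0 in resistant cells, both under 1.87, at the bottom of the scale. The summed leukocyte level was 5.88 to 6.64 in parental and 6.28 to 6.90 in resistant libraries. Of 4 fibroblast markers 3 were lower and 1 was higher, with summed levels of 6.77 to 7.31 and 5.85 to 6.36. The endothelial list is given with the endothelial genes below. In OVSAHO 3 of 5 epithelial markers were lower by the same rule, in OV-90 none was, and in EFO-21 CDH1 was higher. In OV-90, PECAM1 (6.35 to 3.46), VWF (1.67 to 0.62), PTPRC and COL1A2 were lower and CDH5 (0.41 to 1.66) was higher. The summed endothelial level there went from between 6.41 and 6.46 to between 3.94 and 4.03. In OVSAHO, DCN (2.05 to 6.27), LUM (2.03 to 6.76) and CDH5 (-0.2 to 1.09) were higher, while MUC16, PTPRC, CD3E, COL1A1 and COL1A2 were lower. These means of CDH5 and VWF are under 1.87, at the bottom of the scale, so little is read from their changes. In EFO-21, MSLN and COL1A2 were higher and CD14 was lower. The part of these changes in the results below was not tested.

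Promoter sequences are shown for 4 genes, because they stand at the start of the altered stretch or at its centre. ZNF202 is the last expressed gene before it, TBRG1 is its second gene, SPA17 shares its start region with SIAE, and CHEK1 is the drug target. The bases come from RefSeq (GRCh38.p14) windows of 300 bases (250 before and 50 after a start), were placed on GRCh37 by exact match, and exclude annotated untranslated and coding bases. Capitals mark CCAAT (bound by NF-Y), GGGCGG (an SP1 box) and CCGGAAG (an ETS box), on either strand. None of the capital stretches overlap.
ZNF202 (minus strand, chr11:123612382-123612618): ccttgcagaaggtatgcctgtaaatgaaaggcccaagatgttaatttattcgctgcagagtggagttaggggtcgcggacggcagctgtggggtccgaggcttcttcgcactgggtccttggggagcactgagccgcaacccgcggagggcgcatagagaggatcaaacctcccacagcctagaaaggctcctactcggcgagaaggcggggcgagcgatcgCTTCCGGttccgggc
TBRG1 (plus strand, chr11:124492510-124492756): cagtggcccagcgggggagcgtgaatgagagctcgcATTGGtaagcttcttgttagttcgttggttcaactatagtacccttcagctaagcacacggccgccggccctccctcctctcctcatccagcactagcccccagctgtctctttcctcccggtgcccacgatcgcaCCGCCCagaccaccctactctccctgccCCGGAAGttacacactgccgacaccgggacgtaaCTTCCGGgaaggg
SPA17 (plus strand, chr11:124543636-124543739): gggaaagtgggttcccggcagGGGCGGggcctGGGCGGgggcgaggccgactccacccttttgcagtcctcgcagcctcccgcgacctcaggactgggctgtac
CHEK1 (plus strand, chr11:125495930-125496118): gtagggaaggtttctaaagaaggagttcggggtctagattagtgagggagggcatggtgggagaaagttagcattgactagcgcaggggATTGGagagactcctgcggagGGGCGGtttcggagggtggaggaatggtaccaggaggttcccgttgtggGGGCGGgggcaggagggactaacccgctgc

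In Kuramochi, most genes around CHEK1 were higher in resistant than in parental cells. CHEK1 had log2 levels of 6.65, 6.79 and 6.81 in the parental libraries and 9.37, 9.42 and 9.34 in the resistant ones. The groups were far apart, and the difference of 2.63 is a 6.18-fold higher level. Of the 40 measured genes, 29 were higher by at least 1 with groups that did not overlap, and 3 were lower, that is 72.5% and 7.5%. Across all genes of the table, 12.3% were higher and 11.2% were lower by the same rule. The median difference over the 40 genes was 2.22, with quartiles of 0.97 and 2.71, against -0.02 over all genes. The rule that chose the genes used this contrast, so nothing is read from these shares.

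By the rule that picked them, with groups that did not overlap, the 29 genes had to be higher in each resistant Kuramochi library. Nothing is therefore read from their being so. Taken against the parental mean of each gene, their median was 2.52, 2.44 and 2.41 in the 3 resistant libraries. The 3 parental libraries had medians of -0.11, 0.04 and 0.06. In the resistant libraries of the other 3 lines the same genes had medians between -0.13 and 0.28. Of the 29 differences, 13 lay between 1.9 and 2.7, 8 were over 3 and 6 were under 1.9. FLI1, at 1.0, was just inside the limit of 1. DDX25, at 0.87, was just outside, and KIRREL3 had a difference of 1.54 with groups that overlapped.

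The edges of the shift were described with a running median over 9 neighbouring genes. It used the chromosome 11 genes whose mean over the Kuramochi libraries was above the 25th percentile of all genes, which kept 33 of the 40 members. The run of genes around CHEK1 with a running median of at least 0.5 held 31 genes, of which 26 are members. It began at VWA5A (start 123986111) and ended at ETS1 (end 128457453), a span of 4.47 Mb. Of the 31 genes, 28 were higher by at least 1, and the median difference was 2.40, or 5.26-fold. The 20 genes of the run with a mean above the median of all genes had a median of 2.32. The 5 genes of the run that are not members are named here after their values were seen. They are ESAM-AS1 (3.90), MSANTD2-AS1 (3.27), KRT18P59 (1.35), PATE2 (4.53) and GSEC (0.78), and include antisense RNAs and a pseudogene. ESAM-AS1, MSANTD2-AS1 and GSEC each overlap a member on the opposite strand. Whether counting used strand is not given, so their values are uncertain.

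**Figure D1:**
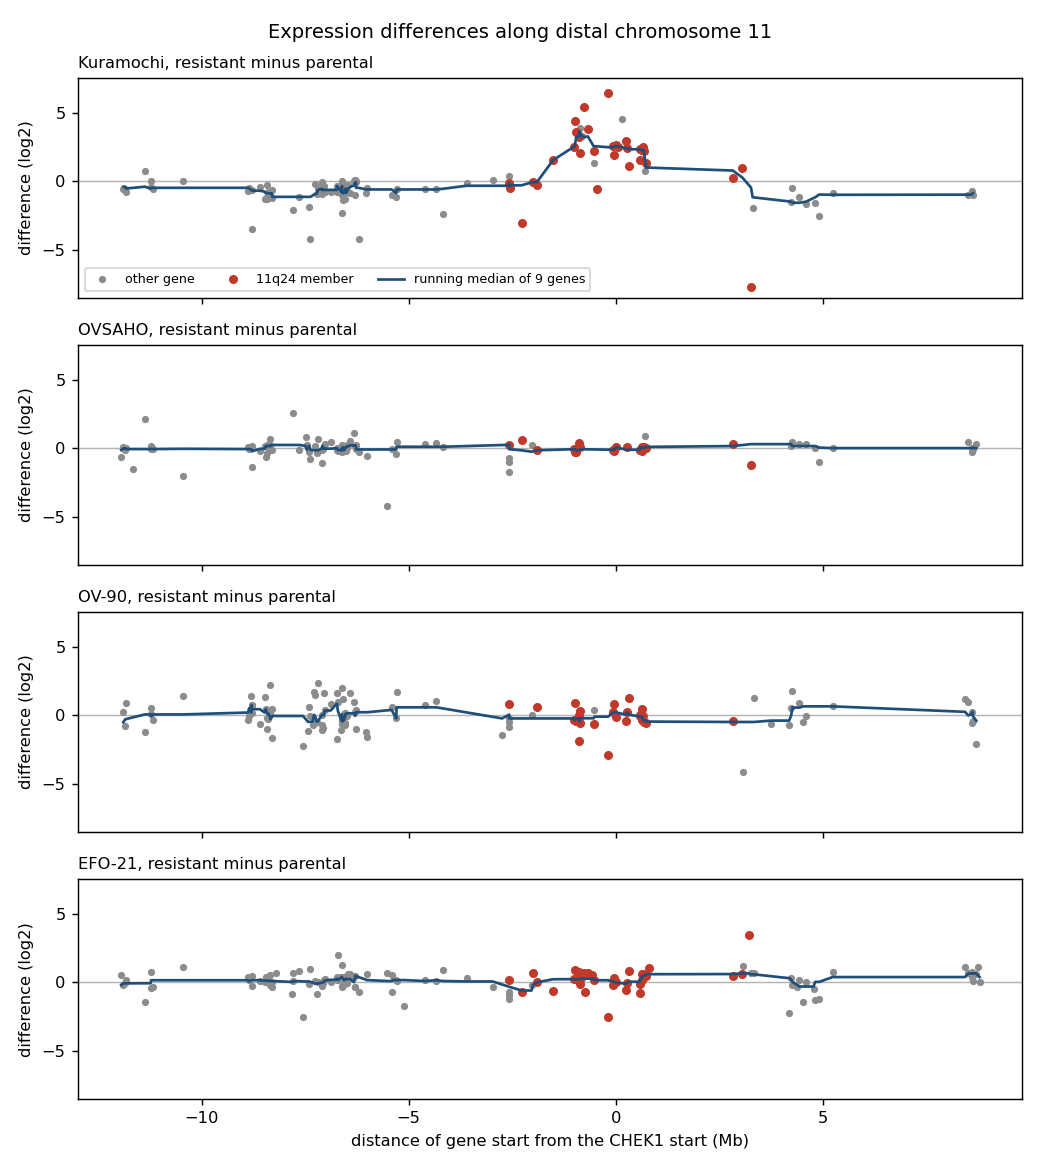
Difference in log2 expression between resistant and parental cells (y axis) for each expressed gene against the distance of its start from the start of CHEK1 in Mb (x axis), with 1 panel for each line. Red points are the 11q24 genes, grey points are other genes and the blue line is the running median of 9 genes, which reached 3.62 in Kuramochi and stayed between -0.49 and 0.60 over the same stretch in the other 3 lines.

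The lower edge was sharp. ZNF202, a zinc finger repressor, had log2 levels of 5.31, 5.24 and 5.10 in parental and 4.90, 4.88 and 4.96 in resistant cells, a difference of -0.30. The next expressed gene, VWA5A, lies 0.37 Mb further on and had 3.02, 3.69 and 3.33 against 4.90, 4.88 and 4.88, a difference of 1.54. TBRG1, a nuclear regulator of growth 0.47 Mb beyond VWA5A, went from 5.87, 6.11 and 6.08 to 8.57, 8.56 and 8.53. The difference went from -0.30 to 1.54 and then 2.53 over these 3 consecutive expressed genes. The 4 other expressed genes just before ZNF202 had differences between -3.05 and -0.06.

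The upper edge was less sharp. DCPS, the scavenger enzyme that degrades mRNA cap fragments, still had a difference of 2.23. Its neighbour GSEC, which overlaps it on the other strand, had 0.78, and ST3GAL4, a sialyltransferase, had 1.32. The next expressed gene, ETS1, starts 2.02 Mb beyond the end of ST3GAL4 and had a difference of 0.27, so it entered the run only through the running median. FLI1, next to ETS1, had 1.0. Beyond it came KCNJ5 at -7.72, TP53AIP1 at -1.97, NFRKB at -1.49 and PRDM10 at -0.46. With a running median of at least 0.8 the run ended at ST3GAL4 and held 30 genes, and with genes above the 50th percentile only it ran from TBRG1 to ST3GAL4.

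The rest of chromosome 11 was not higher in resistant Kuramochi. From the start of the chromosome to 100 Mb, 655 expressed genes had a median difference of -0.18. From 100 to 120 Mb, 111 genes had a median of -0.69. From 120 Mb to the run, 17 genes had a median of -0.39, and only 2 of them were higher in resistant cells. The 14 expressed genes after the run had a median of -1.08. Over all chromosomes the median of 16243 expressed genes was -0.01.

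The single members are described by known role, an order used for reading that was neither a fixed list nor tested. STT3A, a catalytic subunit of the oligosaccharyltransferase that attaches N-glycans, had log2 levels of 9.27, 9.20 and 9.19 in parental and 11.15, 11.26 and 11.05 in resistant Kuramochi. SRPRA, the alpha subunit of the receptor for the signal recognition particle, had 9.29, 9.22 and 9.14 against 11.56, 11.59 and 11.38. EI24, a protein of the endoplasmic reticulum first found as a p53 target, had 7.35, 7.44 and 7.48 against 9.95, 10.02 and 9.94. All 3 genes were clearly separated, with differences of 1.93, 2.29 and 2.55. SIAE, which removes acetyl groups from sialic acids, showed a larger difference of 4.43, from 4.20, 3.89 and 4.25 to 8.48, 8.65 and 8.50. SPA17, a sperm protein that shares the start region printed above with SIAE, had a difference of 3.62. SLC37A2, a sugar-phosphate transporter, had a difference of 3.08 from a parental mean of 0.54, at the bottom of the scale.

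Next come 3 enzymes that act on RNA. PUS3, a pseudouridine synthase of transfer RNA, had 5.67, 5.90 and 6.03 in parental and 8.26, 8.25 and 8.27 in resistant cells. RPUSD4, a mitochondrial pseudouridine synthase, had 7.54, 7.51 and 7.45 against 9.12, 8.99 and 9.04, and DCPS had 8.51, 8.65 and 8.78 against 10.88, 10.84 and 10.93. None of these groups overlapped. Among the genes for mitochondria, cilia and signalling, the complex I assembly factor FOXRED1 differed by 2.30, the centriole gene HYLS1 by 2.97, TMEM218, a protein of the ciliary base, by 2.21, and TIRAP, the adaptor of Toll-like receptors, by 2.51. NRGN, a calmodulin-binding protein of neurons, differed by 3.23 and FAM118B by 2.33. CCDC15 differed by 3.79, MSANTD2 by 2.08 and ACRV1, an acrosomal protein of sperm that overlaps CHEK1, by 2.48.

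The widest upward differences were those of FEZ1 and ROBO3, both low in parental Kuramochi. FEZ1, an adaptor of kinesin transport, had 1.66, 2.55 and 2.32 in parental and 8.53, 8.55 and 8.67 in resistant cells, a difference of 6.41. FEZ1 overlaps EI24 on the other strand. ROBO3, a receptor of the Roundabout family, had 1.96, 2.01 and 1.66 against 7.23, 7.30 and 7.45, a difference of 5.45. Parental libraries at such levels lie near the bottom of the scale, where a log2 difference is not a measured fold change. The parental libraries of SLC37A2, VSIG2, DDX25, ROBO4 and ESAM were all at or below 1.87, the highest value of the 10th percentile in any library. ROBO4, another receptor of that family known from endothelium, had parental levels of 0.20, 0.24 and 0.38 and resistant levels of 4.29, 4.31 and 4.42. ESAM, an adhesion molecule of endothelial cells, had 1.11, 1.11 and 1.46 against 4.31, 4.26 and 3.97. Of the 3 endothelial markers, CDH5 was higher in resistant Kuramochi (4.75 to 7.62), VWF was lower (3.89 to 1.89) and PECAM1 was at the bottom in both (0.66 and 0.67). Their summed level went from between 5.16 and 5.65 to between 7.52 and 7.74, and its part in the values of ROBO4 and ESAM was not tested. VSIG2, a cell-surface immunoglobulin protein, differed by 1.62, and CDON, a co-receptor of Hedgehog ligands, by 1.14.

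**Figure D2:**
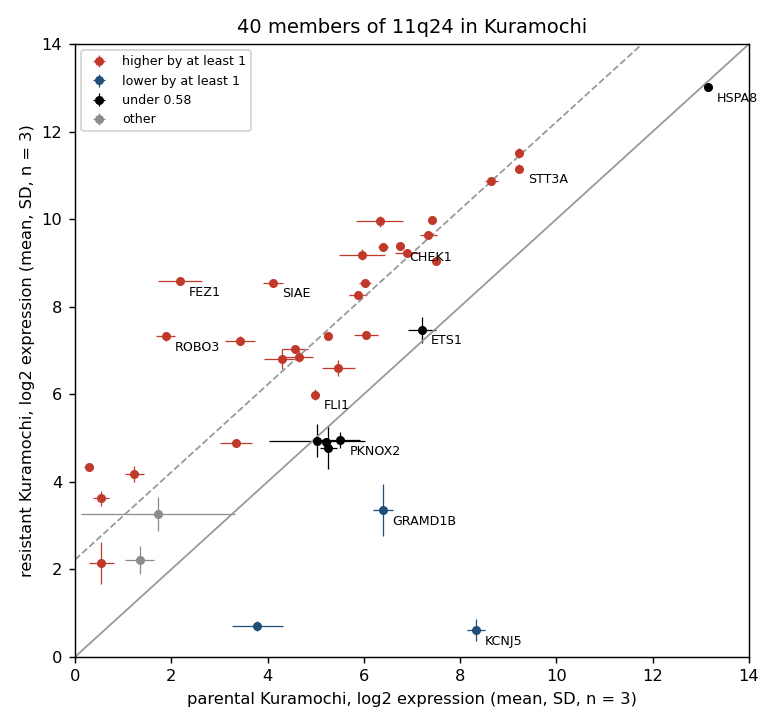
Mean log2 expression in resistant Kuramochi (y axis) against parental Kuramochi (x axis) for the 40 genes, with bars for the SD of 3 libraries. The solid line marks equal levels and the dashed line the median difference of 2.22, and the red points spread around it from 1.0 (FLI1) to 6.41 (FEZ1).

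Inside the run, PKNOX2 and ETS1 were the expressed members that escaped the shift, and ETS1 lies at its less sharp upper end. PKNOX2, a homeobox transcription factor between TMEM218 and FEZ1, had 5.81, 5.67 and 5.05 in parental and 5.16, 4.84 and 4.84 in resistant cells. Its groups overlapped, and its difference of -0.57 was the lowest in the run. ETS1, at 0.27, and the members before the run, HSPA8 (-0.14), CLMP (-0.48), SCN3B (-0.08) and ZNF202 (-0.30), make up the rest of the genes above the 25th percentile with a difference under 0.58 that were not lower by the rule. Those before the run lie outside the shifted stretch, so they did not escape a shift around them. The value of SCN3B rests on 1 exon, and its parental Kuramochi libraries ranged from 3.91 to 5.86. HSPA8 is the constitutive HSP70 chaperone and ranged from 12.95 to 13.20 over the 6 Kuramochi libraries.

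Members at both flanks were lower in resistant Kuramochi. KCNJ5, an inward-rectifier potassium channel, had 8.52, 8.31 and 8.14 in parental and 0.76, 0.76 and 0.31 in resistant cells, a difference of -7.72 that ends at the bottom of the scale. KCNJ1, the neighbouring potassium channel, had 3.24, 3.80 and 4.30 against 0.60, 0.82 and 0.71. GRAMD1B, a cholesterol transfer protein at the other flank, had 6.65, 6.26 and 6.29 against 3.38, 3.93 and 2.74. The groups of these 3 genes did not overlap, and all 3 lie outside the run.

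**Figure D3:**
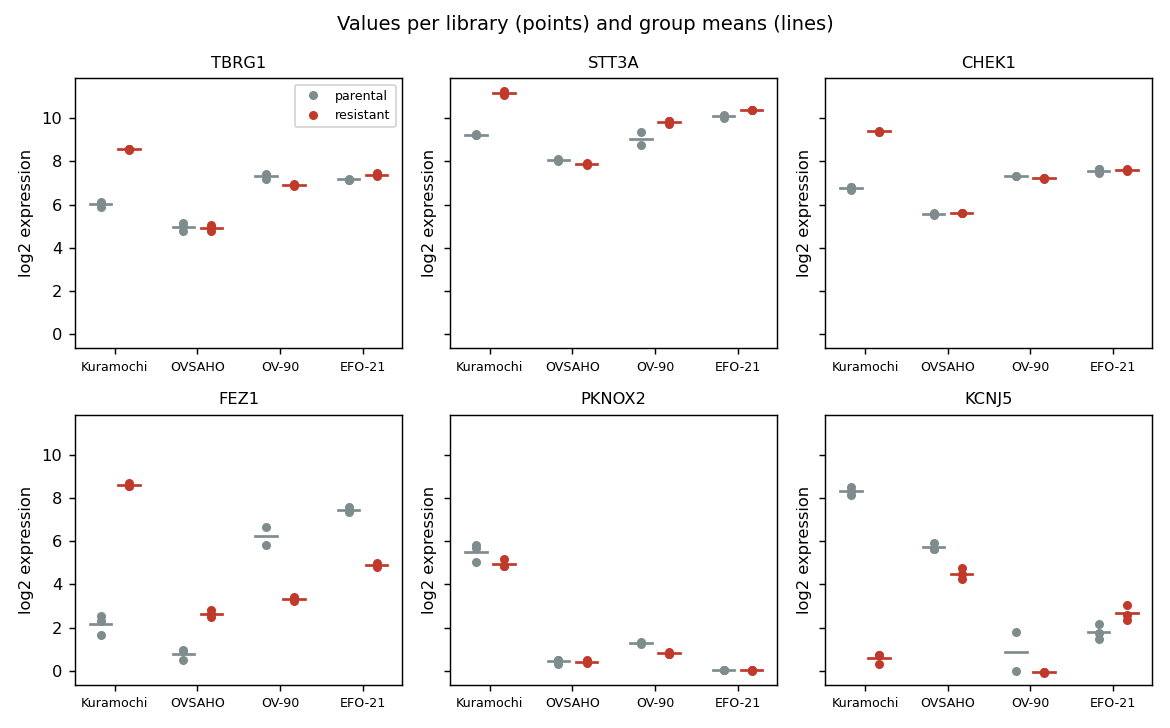
Log2 expression (y axis) of 6 members in each library, by line (x axis) and state, with points for libraries and lines for group means. TBRG1, STT3A, CHEK1 and FEZ1 are high in resistant Kuramochi, PKNOX2 differs little between its Kuramochi groups, and KCNJ5 has Kuramochi means of 8.33 in parental and 0.61 in resistant cells.

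CHEK1 was highest in resistant Kuramochi among the 8 groups. Its mean log2 level there was 9.38 ± 0.04 (SD, n = 3), followed by resistant and parental EFO-21 at 7.60 ± 0.04 and 7.57 ± 0.10, which did not differ beyond their spread. Parental OV-90 (7.32 ± 0.01, n = 2) and resistant OV-90 (7.22 ± 0.02) came next, then parental Kuramochi (6.75 ± 0.09), resistant OVSAHO (5.62 ± 0.01) and parental OVSAHO (5.56 ± 0.04). The 2 OV-90 groups and the 2 OVSAHO groups did not overlap, but neither difference passed the test given below.

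The same genes were then tested in the lines whose contrast did not choose them, with limma fitted on all 21658 genes of each line alone. Exact permutation of 3 against 3 libraries cannot give a p below 0.1, so the adjusted p-values rest on the limma model. CHEK1 was not called in any of them. The difference was 0.07 in OVSAHO (95% interval -0.13 to 0.26, limma adjusted p = 0.573), -0.10 in OV-90 (-0.30 to 0.10, adjusted p = 0.339) and 0.04 in EFO-21 (-0.11 to 0.18, adjusted p = 0.658). The Kuramochi contrast chose the genes, so the gap between these lines and the Kuramochi difference of 2.63 was not tested. The CHEK1 responses of the 3 lines differed by -0.17 to 0.03 in the 3 pairs of lines, with limma adjusted p between 0.158 and 0.821.

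Over the 40 genes the median difference was 0.07 in OVSAHO, -0.09 in OV-90 and 0.22 in EFO-21, against 0.00, -0.06 and 0.01 over all genes. In the stretch of the Kuramochi run the running median stayed between -0.14 and 0.16 in OVSAHO, between -0.49 and 0.21 in OV-90 and between -0.10 and 0.60 in EFO-21. In EFO-21 it passed 0.5, the limit used for the run, only towards the upper end, from GSEC (0.57) to ARHGAP32 (0.58) beyond the stretch. At CHEK1 itself the running median was 2.55 in Kuramochi, 0.07 in OVSAHO, 0.21 in OV-90 and -0.03 in EFO-21.

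In OVSAHO, 2 members rose and 2 fell with an adjusted p below 0.05 and at least a 2-fold change. Over all genes 3.93% rose and 3.83% fell, and 2 of 40 is 5%. FEZ1 rose from 0.95, 0.51 and 0.91 to 2.65, 2.82 and 2.50 (difference 1.87, SE 0.19, limma adjusted p = 0.00137), and DDX25, an RNA helicase of the testis, rose by 1.29 (adjusted p = 0.00649). HYLS1 fell from 4.60, 4.83 and 4.50 to 3.07, 2.68 and 2.75 (difference -1.81, SE 0.18, adjusted p = 0.00133), while PUS3, which overlaps HYLS1 on the other strand, had a difference of 0.09. KCNJ5 fell by 1.24 (adjusted p = 0.00433). FEZ1 started at the bottom of the scale in this line.

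In OV-90, 1 member rose and 3 fell, against 9.5% and 6.56% of all genes. CDON rose from 4.30 and 5.05 to 5.96, 5.91 and 6.02 (difference 1.29, SE 0.26, limma adjusted p = 0.0268). FEZ1 fell from 6.64 and 5.81 to 3.44, 3.35 and 3.25 (difference -2.88, SE 0.30, adjusted p = 0.0105). FLI1, an ETS transcription factor, fell by 1.97 (adjusted p = 0.0147) and VSIG2 by 1.89 (adjusted p = 0.0192). All 4 lost their call without resistant library 13, 14 or 15, and CDON also without parental library 2. With each of the 5 libraries left out in turn, the difference ranged from -3.30 to -2.46 for FEZ1, -2.22 to -1.73 for FLI1, -2.33 to -1.45 for VSIG2 and 0.92 to 1.66 for CDON, with limma adjusted p up to 0.104 where calls were lost. Without parental library 3, which left 1 parental library, the median difference over the members was -0.23.

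In EFO-21, 2 members rose and 1 fell, against 7.11% and 7.15% of all genes. KCNJ1 rose from 4.77, 3.97 and 4.84 to 8.0, 7.92 and 8.05 (difference 3.46, SE 0.24, limma adjusted p = 0.000158). KIRREL3, a cell adhesion protein, rose by 1.02 (adjusted p = 0.0134) and lost its call without library 10, 11 or 23. Its value rests on 1 exon. FEZ1 fell from 7.45, 7.56 and 7.34 to 4.81, 4.89 and 4.97 (difference -2.56, SE 0.09, adjusted p = 2.11e-05). Both KCNJ1 and FEZ1 thus had the opposite sign to their Kuramochi difference.

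**Figure D4:**
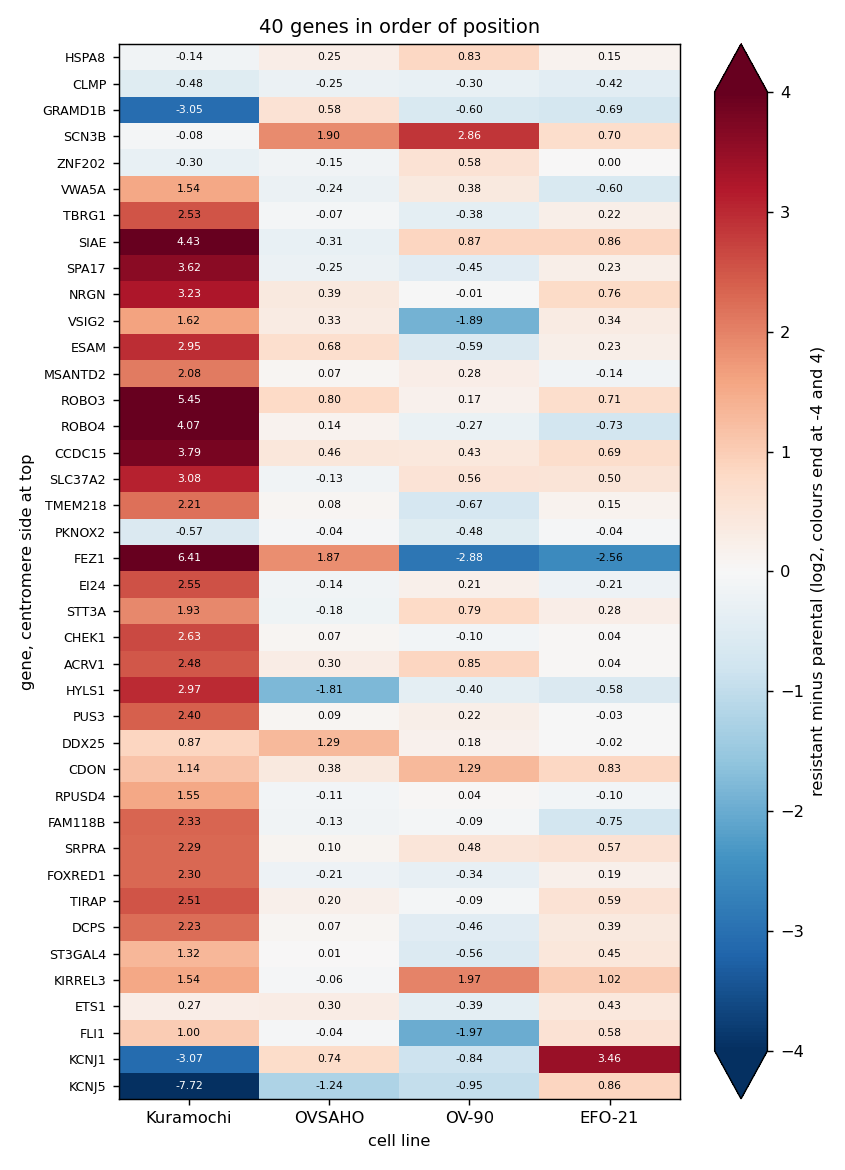
Difference in log2 expression between resistant and parental cells for the 40 genes (rows, in order of position) in the 4 lines (columns), printed in each cell, with colours that end at -4 and 4. The red block in the Kuramochi column, interrupted at PKNOX2 (-0.57), has no counterpart of that length in the other 3 columns.

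The responses of the 3 lines were compared gene by gene in 1 limma fit of 17 libraries. OV-90 and OVSAHO differed for 9 of 40 members (22.5%), against 17.3% of all genes. OV-90 and EFO-21 differed for 5 (12.5%), against 24.9%, and OVSAHO and EFO-21 for 7 (17.5%), against 15.8%. These shares are read against those of all genes and give no result particular to the members.

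Genes that act with CHK1 were read from a list of 30 sensors, mediators, targets and cyclins. Their median difference in Kuramochi was 0.01, and by the descriptive rule 1 was higher and 0 lower (3.33% and 0%, against 12.3% and 11.2% of all genes). It was CDK1, the mitotic cyclin-dependent kinase, with 1.01, and it was under the limit without library 6 or 17. In OVSAHO limma called 0 of 30 at 2-fold, against 3.93% of all genes higher and 3.83% lower. Regardless of size, 16 of 30 had an adjusted p under 0.05, against 33.3% of all genes. An unadjusted p under 0.05 held for 21. The share of all genes at that limit was not counted, so nothing is read from it. In OV-90, WEE1, the kinase that restrains CDK1, rose by 1.43 (limma adjusted p = 0.00946) and CCNE2, a cyclin of S phase entry, by 1.29 (adjusted p = 0.0164), 6.67% of the list against 9.5% of all genes. No gene of the list was called in OV-90 without library 13, 14 or 15. In EFO-21, PKMYT1, another inhibitor of CDK1, rose by 1.07 (adjusted p = 6.81e-05) and CCNA2, a cyclin of S and G2 phase, fell by 1.05 (adjusted p = 8.26e-05), 3.33% in each direction against 7.11% and 7.15%. These 5 genes were chosen after their values were seen, since none of the list was called in 2 of the 3 lines.

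No motif searched was in the promoter windows of all the genes that were higher in resistant Kuramochi. RefSeq windows were found for 28 members, 21 of them among those 29. The SP1 box GGGCGG was in 17 of the 21 (81.0%), against 48.3% of 27305 genes with a window, and CCAAT in 10 (47.6%), against 39.7%. The E-box CACGTG was in 4 (19.0%), against 8.77%, the ETS box CCGGAAG in 2 (9.52%), against 12.2%, and the E2F box TTTCCCGC in 1 (4.76%), against 1.98%. The E2F box TTTGGCGC was in 0 of 21, against 0.795%. The median GC content was 63.1% in the 21 and 58.3% over all genes, and the table of all genes also holds genes without a coding sequence. Both strands were searched, and a match is a description of the letters only.

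Overlapping genes limit what single values mean. Among the 40 members, 22 overlap another gene of the table and 15 overlap another member. FEZ1 overlaps EI24 over 15404 bases and HYLS1 overlaps PUS3 over 7162 bases, both on opposite strands, while CHEK1 overlaps ACRV1 over 4734 bases on the opposite strand and STT3A over 53 bases on the same strand. The library kit keeps strand, but whether the counting used it is not given in the sources used here, so values of these genes are uncertain where the neighbour is far more abundant.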

How the data were processed

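mRNA libraries of 4 ovarian cancer cell lines were made with a stranded kit and sequenced. Per the labels and the study's methods, the authors aligned reads to GRCh37 (hg19), summarized exons to genes and deposited quantile-normalized log2 expression values for 21658 genes in 23 libraries. A robust linear model gave 16448 of the gene values and a mean of log2 values gave 5210. No counts were used here, so depth is unknown, the number of libraries limits precision, and normalization to 1 shared distribution can hide a change common to most genes.

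The members and gene lists were chosen with earlier results of these data known. Columns were assigned to groups by line and resistance, since they carry library numbers but no replicate numbers, and 0 columns of other samples were present. Differences are group means of resistant minus parental log2 values, with no pseudocount. OVSAHO, OV-90 and EFO-21 were each fitted alone with limma 3.58.1 (R 4.3.3, empirical Bayes with a trend, two-sided, Benjamini-Hochberg over all genes). A gene was called at an adjusted p under 0.05 and at least 2-fold. Kuramochi, whose contrast chose the members, was described without a test, by a difference of at least 1 with groups that did not overlap. Responses of 3 pairs of lines were compared in 1 fit of 17 libraries. The fit was tested on simulated data. Marker lists covered epithelial, Mullerian or serous, leukocyte, endothelial and fibroblast genes. The genes named were all members, the 5 expressed genes on each side of each end of the run, and genes of the CHK1 list called in at least 2 of the 3 tested lines. Alternatives were no mean-variance trend, 1 fit of all 23 libraries, 1.5-fold and no minimum fold, genes above the 25th percentile only, libraries recentred to the same median, other settings of the run, and leaving out each library.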

Additional observations from a re-analysis of the deposited data

Results flagged for a closer look

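Several genes around CHEK1 had differences between resistant and parental cells that varied from line to line, as did many other genes. For OV-90 against OVSAHO this held for 22.5% of the members and 17.3% of all genes. For OV-90 against EFO-21 it was 12.5% and 24.9%, and for OVSAHO against EFO-21 17.5% and 15.8%. These shares give no result particular to the members. The tested values are differences between 2 lines in the log2 difference resistant minus parental, each past a limma adjusted p under 0.05 and a size of 1. Between OV-90 and OVSAHO they were -4.74 for FEZ1 (adjusted p = 8.54e-08), -2.22 for VSIG2, -1.93 for FLI1, -1.58 for KCNJ1, -1.27 for ESAM, -1.18 for GRAMD1B, -1.11 for DDX25, 1.18 for SIAE and 1.42 for HYLS1. Between OV-90 and EFO-21 they were -4.30 for KCNJ1 (adjusted p = 6.79e-07), -2.56 for FLI1, -2.24 for VSIG2, -1.82 for KCNJ5 and -1.01 for ST3GAL4. Between OVSAHO and EFO-21 they were 4.42 for FEZ1 (adjusted p = 5.89e-08), -2.72 for KCNJ1, -2.10 for KCNJ5, 1.31 for DDX25, 1.27 for GRAMD1B, -1.23 for HYLS1 and -1.17 for SIAE. Some of these comparisons involve a line at the bottom of the scale, with all its libraries at or below 1.87. This held for KCNJ5 and GRAMD1B in OV-90, for FLI1 and VSIG2 in OVSAHO and for VSIG2 in EFO-21. The parental OVSAHO libraries of FEZ1 and KCNJ1 were at or below 1.87 as well.

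Of the same genes, 5 also had a difference opposite in sign to that of Kuramochi. In both lines its size was at least 1 and the groups did not overlap. The share of all genes that meet this rule was not counted, so nothing is read from the number. The difference of these lines from Kuramochi was not tested. HYLS1 had -1.81 in OVSAHO against 2.97 in Kuramochi. In OV-90, FEZ1 had -2.88, FLI1 -1.97 and VSIG2 -1.89. In EFO-21, FEZ1 had -2.56, and KCNJ1 had 3.46 against -3.07 in Kuramochi. The OV-90 values share 1 limit, since parental OV-90 has 2 libraries.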

How the results depend on the processing

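With no minimum fold, limma called 10 members in OVSAHO, 14 in OV-90 and 26 in EFO-21, and 16, 11 and 16 of the CHK1 list, against 33.3%, 36.0% and 48.4% of all genes. At 1.5-fold it called 7 members in OV-90 and 15 in EFO-21, and 3 of the CHK1 list in OVSAHO and 8 in OV-90, against 14.6% of all genes in OVSAHO, 28.6% in OV-90 and 25.8% in EFO-21. In Kuramochi the descriptive counts of that list were 6 at 1.5-fold and 17 with no minimum, against 38.5% and 59.2% of all genes. With genes above the 25th percentile only, 1 member was called in OVSAHO and the median there was -0.03. With genes above the 50th percentile the run held 19 genes.

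Leaving out 1 library at a time moved these results. Members called in OV-90 fell to 0 without library 13 or 14 and to 1 without library 15. The shares of all genes called in those fits were not counted. The OV-90 median ranged from -0.23 to -0.05 and the OVSAHO median from 0.02 to 0.12. Calls in the CHK1 list ranged from 0 to 4 in OV-90, 0 to 1 in OVSAHO and, as described counts, 0 to 1 in Kuramochi. The CHEK1 difference in EFO-21 ranged from -0.02 (without library 11) to 0.06 and was not called. Where OV-90 parental was left with 1 library, that library was assumed to vary like the others. The other 67 values, and 116 with a library left out, kept their direction and their side of the threshold, or moved by less than the spread of the libraries, or, for counts, stayed within 1.5 times. The causes were not tested. No paired analysis was possible because the columns carry no replicate numbers. Depth is unknown, and levels at the bottom of the scale limit the differences of FEZ1, ROBO3, ROBO4, ESAM and KCNJ5. Such levels also limit the comparisons between lines for GRAMD1B, FLI1, VSIG2 and KCNJ1.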
